A study of Rattus norvegicus with 12 samples.

Results

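The Nrf2 pathway and the main antioxidant enzymes were followed in the hearts of 12 male Sprague-Dawley rats by sequencing of polyadenylated RNA. The 10 genes were taken by symbol from the 34700 genes of the count table, and all 10 were present and passed the filter on low counts in each comparison. They were the transcription factor gene Nfe2l2 and its inhibitor Keap1, the Nrf2 targets Hmox1, Nqo1, Gclc and Gclm, the superoxide dismutases Sod1, Sod2 and Sod3, and catalase (Cat).

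The 4 groups held 3 rats each, all operated on at 8 weeks of age, with hearts taken 12 weeks after surgery. In the Sham group a thread was passed around the left anterior descending coronary artery without tying it, and these rats neither ran nor received BAIBA. In the HF group the artery was tied to cause an infarct and heart failure, with neither running nor BAIBA afterwards. The HFE rats had the same infarct and ran on a treadmill for 60 min per day on 5 days per week over 8 weeks. The BAIBA rats had the same infarct and received β-aminoisobutyric acid, a small molecule released by contracting muscle, by oral gavage at 75 mg/kg per day over 8 weeks. In its BAIBA experiment the study gave the Sham and HF rats an equal volume of water by gavage, and the sources do not state this for the HFE rats. All rats received penicillin after surgery, and their ejection fraction before the interventions was used to allocate them to groups. The study's results text describes the sequenced tissue of the HF and BAIBA groups as anterior left ventricular wall around the infarct. Its methods name the anterior left ventricular wall, and the area around the infarct for the BAIBA group only. Whether the region differed between groups is therefore unclear, and such a difference could not be told apart from treatment. Every sample is bulk tissue that mixes muscle with other cell types. The markers of cardiomyocytes were abundant in each library, with a summed level of 7 genes between 23380 and 30410 CPM (counts scaled to a common library total). The libraries held between 14812541 and 19732588 counts.

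Nrf2, the protein made from Nfe2l2, is bound in the cytoplasm by Keap1, which directs it to degradation. Oxidants and electrophiles modify Keap1, Nrf2 then accumulates in the nucleus with small Maf partners and switches on genes that carry an antioxidant response element (ARE), among them those for heme oxygenase 1, NQO1 and both subunits of glutamate-cysteine ligase. Much of this control acts on protein stability, which RNA levels do not measure. The superoxide dismutases turn superoxide into hydrogen peroxide, which catalase breaks down, and in heart muscle much of the superoxide comes from mitochondria.

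The promoter windows of RefSeq, which run from 250 bases before to 50 bases after each transcription start in build GRCr8, were used for 8 of the 10 genes, all but Hmox1 and Sod3, which were not searched. The ARE core was searched in them as TGACNNNGC on both strands, a pattern present in 12.1% of the 33469 windows of the rat genome. It occurred in the windows of Gclm, Sod2 and Nfe2l2. The Gclm match starts 172 bases before the transcription start, the Sod2 match 35 bases before it, and the Nfe2l2 match lies after the start, inside the transcript. The first 2 are shown as the stretch of upstream sequence that holds the core letters, read along the gene's strand with the match in capitals, which is the pattern's reverse complement:
Gclm (GRCr8 chr2:213031938-213031996, + strand): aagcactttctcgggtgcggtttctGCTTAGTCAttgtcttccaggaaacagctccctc
Sod2 (GRCr8 chr1:50050170-50050228, - strand): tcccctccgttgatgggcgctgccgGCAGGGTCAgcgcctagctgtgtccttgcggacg
A related pattern, TGACTCA, was in 4.63% of all windows and in none of the 8 searched, and TGACTCAGC, which meets both patterns, was in 0.415% of all windows. These matches are descriptions of letters in a short window and do not show binding.

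The 10 transcripts covered a wide range of abundance. Compared per transcript length, as the deposited FPKM (fragments scaled to transcript length and library total), the level over the 12 rats was highest for Sod1, the cytosolic copper-zinc enzyme, at 264.2 ± 15.7 FPKM (SD, n = 12). Sod2, the mitochondrial manganese enzyme, followed at 210.7 ± 23.2 FPKM and Cat at 128.6 ± 14.3 FPKM. All other members were far below these: Nfe2l2 stood at 26.1 ± 1.68 FPKM, the extracellular dismutase Sod3 at 20.9 ± 3.41 FPKM, Keap1 at 14.9 ± 0.713 FPKM and Gclm at 13.5 ± 2.34 FPKM. The 3 lowest were Nqo1 at 10.4 ± 1.56 FPKM, Hmox1 at 8.25 ± 3.17 FPKM and Gclc at 6.37 ± 0.576 FPKM. In this order Sod2 separated from Cat, and Cat from Nfe2l2, without any overlap between rats. The ranges of Sod1 and Sod2 overlapped, as did those of all neighbours from Nfe2l2 downward, although Sod1 was above Sod2 within 12 of 12 rats. Keap1 was above Gclm in 10, Nqo1 above Hmox1 in 9 and Hmox1 above Gclc in 8 of 12 rats, so the order among the lowest genes was not stable from rat to rat.

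**Figure D1:**
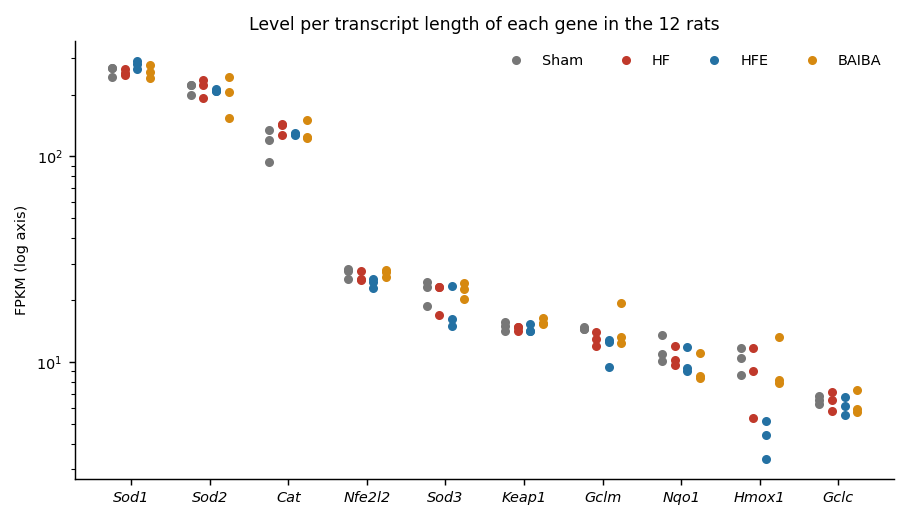
FPKM on a log axis for the 10 genes ordered by their mean over 12 rats, with 1 point per rat coloured by group (3 rats each). Sod1, Sod2 and Cat form an upper tier between 94.2 and 292.4 FPKM, and Hmox1 has the widest spread, from 3.38 to 13.2 FPKM.

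The spread between rats was small for most members. Across the 12 rats the ratio of the highest to the lowest CPM was 3.71 for Hmox1, 2.07 for Gclm and 1.68 for Nqo1, and lay between 1.15 for Keap1 and 1.57 for Sod3 and Cat among the remaining genes. Within groups the coefficient of variation had a median of 26.4% for Hmox1 and 7.18% for the other 9 genes.

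Differences between groups were tested with edgeR's quasi-likelihood test over all expressed genes. A gene counted as changed at a Benjamini-Hochberg adjusted p under 0.05 with an absolute log2 fold change over 1. None of the 10 members met this in any comparison. The same was true of nearly all genes: 0 of 14957 tested genes (0%) were called between HF and Sham, 0 of 14938 (0%) between HFE and HF, 0 of 15039 (0%) between BAIBA and HF, 6 of 14920 (0.0402%) between BAIBA and Sham, 0 of 14804 (0%) between HFE and Sham and 12 of 14844 (0.0808%) between BAIBA and HFE. For the infarcted groups together against Sham and for any difference among the 4 groups, the count was 0 of 15617 (0%) each. DESeq2 called 24, 22, 31, 78, 72, 171, 8 and 333 genes in these 8 comparisons, in the same order, and among the members it called Hmox1 alone, in HFE against Sham, BAIBA against HFE and the test of any difference. Limma on log2(FPKM + 1) called no member.

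At an unadjusted p under 0.05, a descriptive limit without correction, 0 of 10 members passed for HF against Sham, where 898 genes (6%) did, and 0 of 10 for BAIBA against HF, where 834 genes (5.55%) did. The count was 1 of 10 for HFE against HF beside 1139 genes (7.62%), 0 of 10 for BAIBA against Sham beside 1106 (7.41%), 2 of 10 for HFE against Sham beside 1656 (11.2%) and 1 of 10 for BAIBA against HFE beside 1420 (9.57%). It was 0 of 10 for the infarcted groups together beside 992 (6.35%), and 1 of 10 for any difference among the groups beside 1517 (9.71%). With 10 members, a single gene moves their share by 10 percentage points. Comparisons that share the Sham, HF, HFE or BAIBA rats are not independent of each other.

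**Figure D2:**
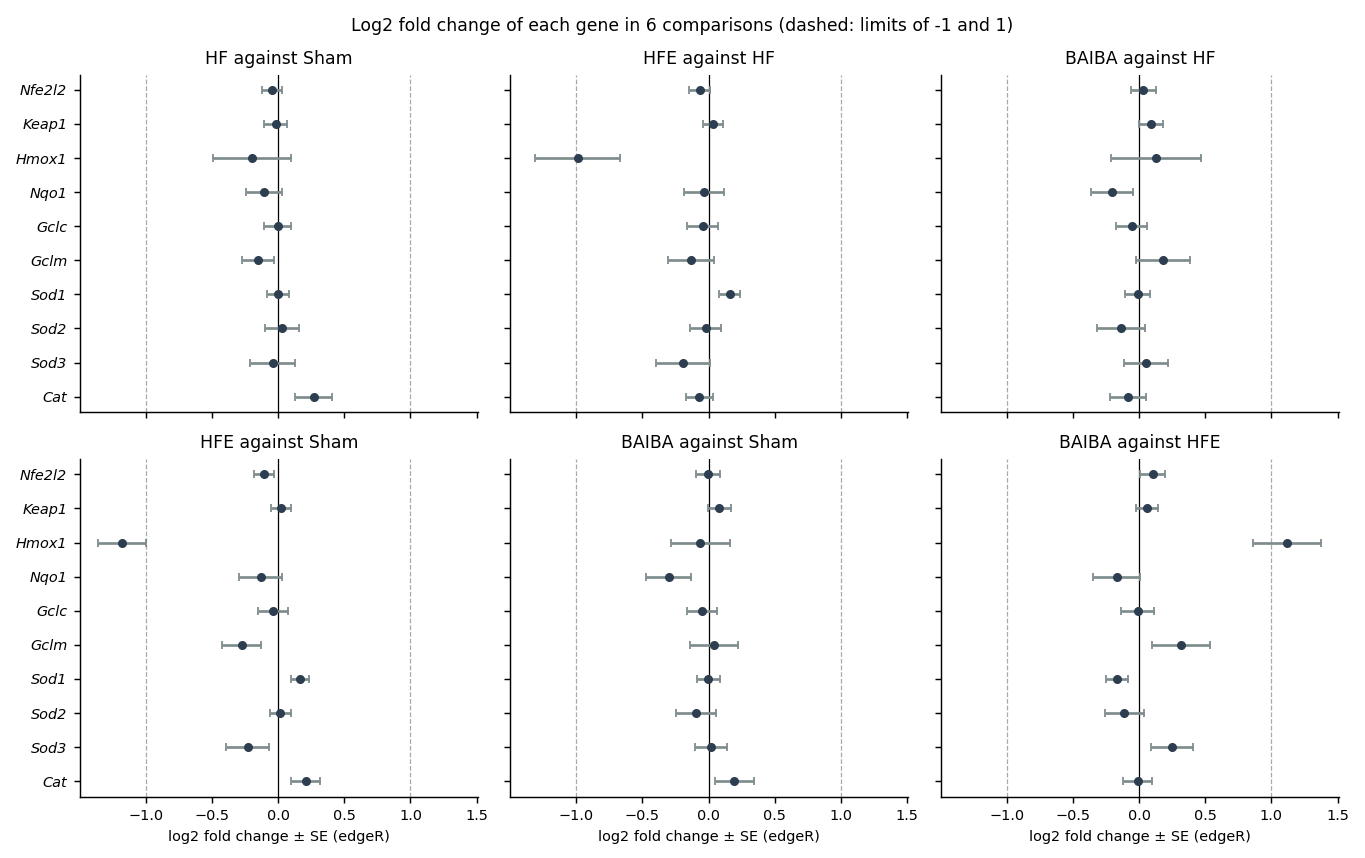
Log2 fold change of each gene (horizontal axis, points) with its standard error (bars) from edgeR in 6 comparisons of 3 against 3 rats, the first-named group over the second. Hmox1 lies near -1 in HFE against HF and HFE against Sham and near 1 in BAIBA against HFE, whereas the other 9 genes stay between -0.30 and 0.32.

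The regulators Nfe2l2 and Keap1 were nearly level across the groups. Nfe2l2 measured 59.3, 64.6 and 62.2 CPM in the Sham rats, 60.7, 59.4 and 60.6 CPM in the HF rats, 55.6, 55.7 and 60.8 CPM in the HFE rats, and 58.8, 66.7 and 59.3 CPM in the BAIBA rats. Its largest log2 fold change, between HFE and Sham, was -0.11 ± 0.08 (SE) with an adjusted p of 0.637, and the HFE range overlapped that of each other group on the CPM scale. On the FPKM scale the HFE rats, at 23.0 to 25.3 FPKM, were all just below the Sham rats, at 25.4 to 28.5 FPKM, and the BAIBA rats, at 25.9 to 28.0 FPKM, with an exact permutation p of 0.1 for each, the smallest that 3 against 3 rats allow. Keap1 measured 47.8, 48.6 and 43.5 CPM in Sham, 44.2, 45.5 and 48.9 CPM in HF, 48.0, 47.2 and 46.4 CPM in HFE and 48.2, 50.2 and 48.8 CPM in BAIBA. The BAIBA rats were all slightly above the HFE rats for Keap1, at means of 49.1 ± 1.02 and 47.2 ± 0.805 CPM (SD, n = 3), a log2 difference of 0.06 ± 0.08 (SE, adjusted p = 0.885).

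Hmox1, which encodes the inducible enzyme that breaks heme down to biliverdin, carbon monoxide and iron, had the largest fold change of the 10 members in each comparison that involved the HFE rats. It measured 13.7, 16.1 and 17.7 CPM in the Sham rats, 7.95, 18.7 and 14.8 CPM in the HF rats, 6.80, 5.55 and 8.45 CPM in the HFE rats, and 11.9, 12.75 and 20.6 CPM in the BAIBA rats. The treadmill group was therefore the lowest, at 6.93 ± 1.46 CPM against 15.8 ± 2.03 CPM in Sham, 13.8 ± 5.44 CPM in HF and 15.1 ± 4.79 CPM in BAIBA (SD, n = 3). All HFE rats were below all Sham and all BAIBA rats. HF rat 1, at 7.95 CPM, lay inside the HFE range on this TMM-normalised scale. On the FPKM scale, which uses the library total alone, the same rat had 5.36 FPKM against at most 5.19 FPKM in HFE, so that HF and HFE did not overlap. The values rested on 80 to 134 counts per HFE library and 139 to 342 counts in the other 9 libraries.

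Against Sham, the HFE rats had 0.441 times the Hmox1 level, a log2 fold change of -1.18 ± 0.18 (SE) at an unadjusted p of 0.000164 in the edgeR fit. This was rank 18 by p among the 14804 genes, and the adjusted p was 0.121. DESeq2 gave -1.19 with an adjusted p of 7.09e-05, and edgeR without the filter on low counts gave an adjusted p of 0.0105, so whether this difference passed the threshold depended on the tool and the filter. With 1 rat left out at a time, the log2 fold change ranged from -1.35 to -1.05. The exact permutation test on the CPM values gave a two-sided p of 0.1, the smallest that 3 against 3 rats allow.

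Against HF, the comparison that asks what the treadmill running added to the infarct, the HFE rats had 0.505 times the Hmox1 level. The log2 fold change was -0.99 ± 0.32 (SE) with an unadjusted p of 0.0181 and an edgeR adjusted p of 0.627, and DESeq2 gave an adjusted p of 0.301. HF rat 1 set part of this value: without it the log2 fold change was -1.26, and without HF rat 2 it was -0.71. The exact permutation p was 0.2 on CPM and 0.1 on FPKM.

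Against HFE, the BAIBA rats had 2.17 times the Hmox1 level, a log2 fold change of 1.12 ± 0.26 (SE) with an edgeR adjusted p of 0.188. DESeq2 gave 1.12 with an adjusted p of 0.00896, and the value ranged from 0.83, without BAIBA rat 3, to 1.29. In the 3 comparisons without the HFE rats Hmox1 was close to level: the log2 fold change was -0.20 ± 0.30 for HF against Sham, 0.13 ± 0.34 for BAIBA against HF and -0.06 ± 0.22 for BAIBA against Sham (SE). The sign of each of these changed when single rats were left out. For all infarcted groups against Sham the log2 fold change was -0.48 ± 0.24 (SE, unadjusted p = 0.0664, adjusted p = 0.805). In the test of any difference among the 4 groups Hmox1 had an unadjusted p of 0.0113 and an adjusted p of 0.396 by edgeR, and an adjusted p of 0.0457 by DESeq2.

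**Figure D3:**
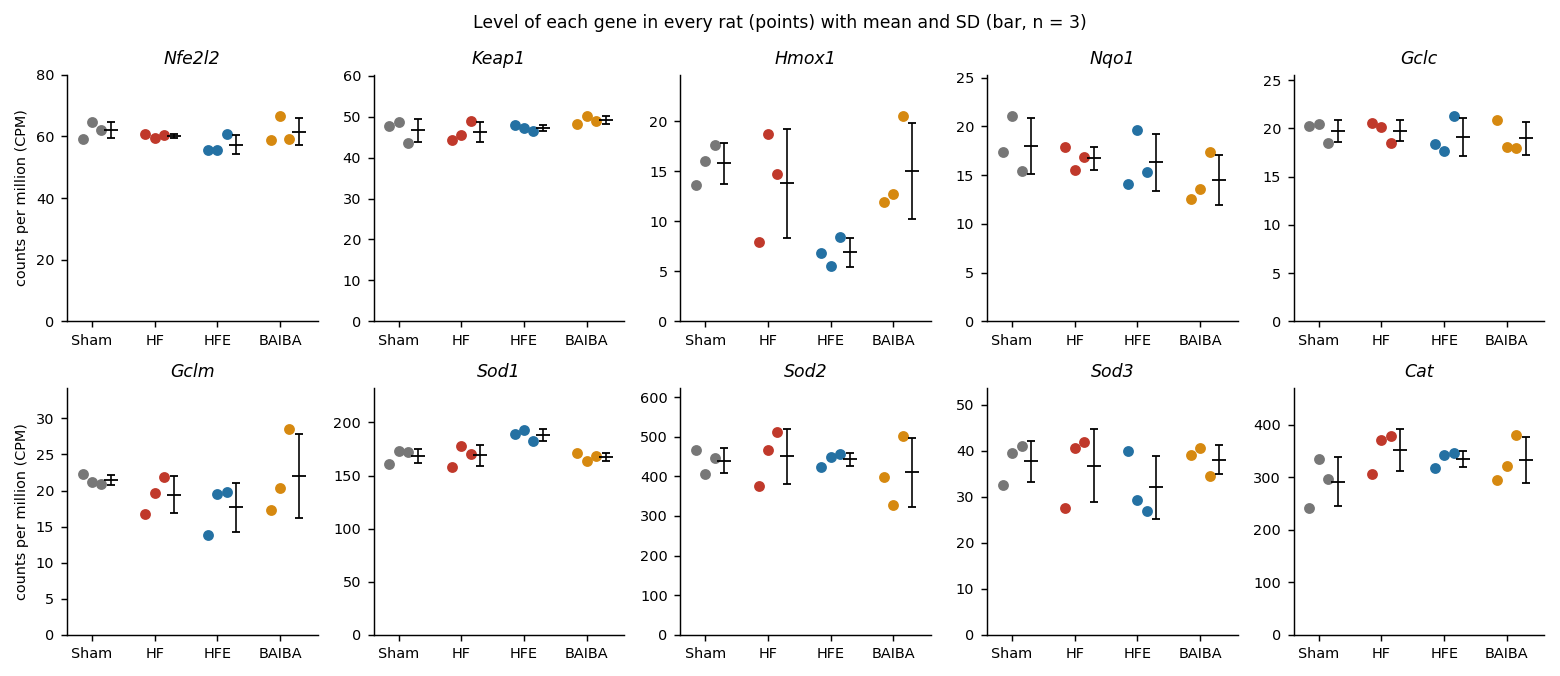
CPM of each of the 10 genes in every rat (points, 3 per group), with the group mean and SD beside them and axes starting at 0. The 3 HFE rats have the lowest mean for Hmox1, at 6.93 CPM, and the highest for Sod1, at 188.4 CPM, while the group means of Keap1 lie between 46.2 and 49.1 CPM.

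The other Nrf2 targets did not share the Hmox1 pattern to a like extent. Nqo1, a quinone reductase often used as a marker of Nrf2 activity, measured 17.4, 21.1 and 15.5 CPM in Sham, 17.8, 15.5 and 16.9 CPM in HF, 14.1, 19.6 and 15.3 CPM in HFE and 12.6, 13.6 and 17.4 CPM in BAIBA. The BAIBA group had the lowest mean, 14.5 ± 2.54 CPM against 18.0 ± 2.86 CPM in Sham, but the ranges overlapped and the log2 fold change of -0.30 ± 0.17 (SE) had an adjusted p of 0.755. Gclm, the modifier subunit of glutamate-cysteine ligase, which makes the precursor of glutathione, measured 22.3, 21.2 and 20.9 CPM in Sham, 16.8, 19.6 and 21.9 CPM in HF, 13.8, 19.5 and 19.75 CPM in HFE and 17.2, 20.3 and 28.5 CPM in BAIBA. Its HFE rats were all below its Sham rats, by a log2 fold change of -0.27 ± 0.15 (SE, adjusted p = 0.524), with HFE rat 1 the lowest of all 12. Gclc, the catalytic subunit of the same enzyme, showed no separation: its 12 values ran from 17.6 to 21.3 CPM, with group means of 19.7 CPM in Sham, 19.7 CPM in HF, 19.1 CPM in HFE and 19.0 CPM in BAIBA.

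Sod1 was the other member with an unadjusted p under 0.05. It measured 161.3, 172.9 and 172.1 CPM in Sham, 158.4, 178.2 and 170.6 CPM in HF, 189.3, 193.4 and 182.6 CPM in HFE, and 171.5, 163.8 and 168.2 CPM in BAIBA. All 3 HFE rats were above the 9 others, but the step was small: the log2 fold change was 0.17 ± 0.07 against Sham (SE, unadjusted p = 0.0388, adjusted p = 0.412) and 0.16 ± 0.08 against HF (unadjusted p = 0.0778, adjusted p = 0.661). BAIBA against HFE gave -0.17 ± 0.08 (SE, adjusted p = 0.576). On the FPKM scale the HFE and Sham values of Sod1 overlapped, at 280.2 ± 12.4 and 260.3 ± 15.0 FPKM (SD, n = 3), with an exact permutation p of 0.3.

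Sod2 and Sod3 varied between rats without a group pattern. Sod2 measured 466.2, 404.9 and 446.5 CPM in Sham, 375.3, 465.4 and 510.8 CPM in HF, 423.7, 448.7 and 455.3 CPM in HFE and 399.2, 328.8 and 501.1 CPM in BAIBA. The lowest and the second-highest of its 12 values were both BAIBA rats. Sod3, the secreted enzyme of the vessel wall and matrix, measured 32.6, 39.4 and 41.1 CPM in Sham, 27.6, 40.7 and 42.0 CPM in HF, 39.9, 29.4 and 26.8 CPM in HFE and 39.0, 40.5 and 34.6 CPM in BAIBA. Its HFE mean was 32.0 ± 6.91 CPM against 37.7 ± 4.49 CPM in Sham (SD, n = 3), a log2 fold change of -0.23 ± 0.16 (SE, adjusted p = 0.630), and the ranges overlapped.

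Cat, the peroxisomal enzyme that breaks down hydrogen peroxide, had a higher mean in each infarcted group than in Sham. It measured 241.8, 335.1 and 296.9 CPM in Sham, 305.8, 371.6 and 377.8 CPM in HF, 317.3, 341.3 and 345.0 CPM in HFE, and 294.0, 321.8 and 379.7 CPM in BAIBA. Sham rat 2 lay within the range of each infarcted group, so no group separated. The infarcted groups together were at a log2 fold change of 0.22 ± 0.11 from Sham (SE, unadjusted p = 0.0699, adjusted p = 0.805), and the exact permutation test on 9 against 3 rats gave 0.0636, where the smallest possible p is 0.00455. HF alone against Sham gave 0.27 ± 0.14 (SE, adjusted p = 0.808).

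Counted by separation, the groups compared did not overlap for 0 of 10 members in HF against Sham (11.7% of all 15617 genes), in BAIBA against HF (11.4%), in BAIBA against Sham (12.6%) and in all infarcted groups against Sham (1.02%). The count was 1 of 10, Sod1, in HFE against HF (14.1%), 3 of 10, Hmox1, Gclm and Sod1, in HFE against Sham (17.7%), and 3 of 10, Keap1, Hmox1 and Sod1, in BAIBA against HFE (15.4%). These counts are on the TMM-normalised CPM scale, and both they and the genes behind them changed on the FPKM scale, an alternative added after the data were seen. There Gclm separated in HF against Sham (11% of all genes), Hmox1 and Sod1 in HFE against HF (13.2%), Keap1 in BAIBA against HF (10.7%), Nfe2l2, Hmox1 and Gclm in HFE against Sham (17.6%), and Nfe2l2 and Hmox1 in BAIBA against HFE (15.3%). Hmox1 in HFE against Sham and in BAIBA against HFE, Gclm in HFE against Sham and Sod1 in HFE against HF separated on both scales.

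The RNA level of Nfe2l2 did not track that of the other members across the 12 rats once the group means were subtracted. Over 9 relations, with the rats permuted within their groups, the strongest was with Sod2, at a Pearson r of -0.53 (permutation p = 0.219, adjusted p = 0.983) and a Spearman rho of -0.43 (permutation p = 0.290, adjusted p = 0.959). Without the 2 rats farthest from the median of Nfe2l2, r was -0.40. With Hmox1 the Pearson r was 0.03 and the Spearman rho 0.14 (permutation p = 0.936 and 0.694, adjusted p = 0.983 and 0.959).

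For each member the 2 genes of most similar pattern were sought among 8186 others with a mean of at least 10 CPM, by Pearson r of log2 CPM over the 12 rats, as a description. Hmox1 was closest to Cited2, a transcriptional co-regulator, at r = 0.958, followed by Exoc6b at 0.904. Cited2 measured 49.1 ± 4.71 CPM in Sham, 42.7 ± 8.23 CPM in HF, 32.2 ± 3.25 CPM in HFE and 44.4 ± 4.25 CPM in BAIBA (SD, n = 3), with HF rat 1 the lowest of its group for both genes. Sod2 was closest to mitochondrial genes, Dlst of the 2-oxoglutarate dehydrogenase complex at 0.959 and the complex I subunit gene Ndufa9 at 0.922. Nfe2l2 was closest to Acvr1b at 0.909 and Dusp7 at 0.881, Keap1 to Acp2 at 0.886 and Zfp869 at 0.862, and Gclm to Fbxo40 at 0.906 and Pdk1 at 0.899. Sod1 was closest to Efhd1 at 0.889 and Anapc13 at 0.888, Nqo1 to Sf3a2 at 0.870 and Nob1 at 0.869, and Gclc to Acbd6 at 0.876 and Npc1 at 0.816. Sod3 was closest to Taf6 at 0.870 and Fam198b at 0.862, and Cat to Caskin2 at 0.868 and Fars2 at 0.839. The points share their libraries and their normalization, and a highest value among 8186 genes is large by selection.

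The other genes of the pathway were set beside the members from fixed lists. The controllers of Nrf2, 12 genes that include Cul3, the small Maf genes and Bach1, had 0 genes called in any comparison by edgeR. At an unadjusted p under 0.05, 1 of the 12 passed in HFE against HF, beside 7.62% of all genes, and none in the other pairwise comparisons. That gene was Bach1, a repressor that competes with Nrf2 at AREs and at Hmox1 in particular, which had 3.92 ± 1.11 CPM in HFE and 7.21 ± 2.81 CPM in HF (SD, n = 3, unadjusted p = 0.0321, adjusted p = 0.635). HF rat 1 was again at one end of its group, with 10.35 CPM of Bach1, and Sham stood at 4.94 ± 2.24 CPM. The median log2 fold change of the list in HFE against HF was 0.04, beside -0.01 over all genes.

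Of the other Nrf2 targets, 14 or 15 were tested in each comparison, none was called, and HFE against Sham had 5 of 14 at an unadjusted p under 0.05, 4 higher and 1 lower, in the comparison where 11.2% of all genes did. The higher ones included Blvrb, a flavin reductase, at 38.0 ± 2.76 CPM in HFE and 29.8 ± 0.766 CPM in Sham (unadjusted p = 0.00292, adjusted p = 0.263). Gsta4, a glutathione transferase for lipid peroxidation products, was at 33.6 ± 1.60 CPM in HFE, 25.2 ± 5.71 CPM in Sham and 22.5 ± 4.67 CPM in HF. Its log2 fold change was 0.42 ± 0.15 against Sham (SE, adjusted p = 0.365) and 0.59 ± 0.15 against HF (adjusted p = 0.627). The lower one was the epoxide hydrolase gene Ephx1, at 21.9 ± 4.07 CPM in HFE, 32.5 ± 5.91 CPM in Sham and 35.6 ± 4.66 CPM in BAIBA (adjusted p = 0.336 against Sham and 0.188 for BAIBA against HFE). The list therefore held genes on both sides of the Hmox1 direction, and its median log2 fold change in HFE against Sham was 0.06 beside 0.01 over all genes. In BAIBA against Sham 2 of 15 passed the unadjusted limit, beside 7.41% of all genes: Txnrd1 at -0.26 ± 0.10 and Tkt at 0.24 ± 0.10 (log2, SE). In HFE against HF the count was 1 of 14, beside 7.62% of all genes. In BAIBA against HFE it was 3 of 14, beside 9.57%, with Ephx1 as the 1 higher gene.

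Among 15 genes of peroxide and superoxide handling, none was called. At an unadjusted p under 0.05, 1 of 15 passed in HF against Sham, beside 6% of all genes, and 1 of 15 in BAIBA against HF (5.55%). It was also 1 of 15 in BAIBA against Sham (7.41%) and in HFE against Sham (11.2%). In HFE against HF (7.62%) and in BAIBA against HFE (9.57%) the count was 2 of 15. The gene that passed this limit most often was Txn2, the mitochondrial thioredoxin. It stood at 106.0 ± 7.53 CPM in Sham, 73.3 ± 10.8 CPM in HF, 91.1 ± 5.28 CPM in HFE and 106.0 ± 15.8 CPM in BAIBA (SD, n = 3). All HF rats were below all rats of the other groups. In either direction, 11.7% of all genes separated in HF against Sham, 14.1% in HFE against HF and 11.4% in BAIBA against HF. These comparisons share the same HF rats, so they are not separate evidence on Txn2. Its log2 fold change was -0.54 ± 0.12 for HF against Sham (SE, unadjusted p = 0.00261, adjusted p = 0.737) and 0.53 ± 0.15 for BAIBA against HF (adjusted p = 0.852). Gpx3, the plasma glutathione peroxidase, was at 142.0 ± 30.7 CPM in HFE and 262.0 ± 39.5 CPM in BAIBA, a log2 fold change of 0.89 ± 0.18 (SE, unadjusted p = 0.00124, adjusted p = 0.174). Of 9 genes for sources of oxidants, 3 had an unadjusted p under 0.05 in HFE against Sham, beside 11.2% of all genes, all lower: Xdh, for xanthine dehydrogenase, at -0.64 ± 0.14, Cybb, for the phagocyte NADPH oxidase, at -0.74 ± 0.20 and Maoa, for monoamine oxidase A, at -1.25 ± 0.42 (log2, SE), with adjusted p-values of 0.242, 0.296 and 0.393. Xdh was also lower in HFE than in HF, at -0.82 ± 0.29 (SE, adjusted p = 0.634), and higher in BAIBA than in HFE, at 0.73 ± 0.15 (SE, adjusted p = 0.174).

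Fth1 was listed at 0 in every rat, and Ftl1 and Gpx4 were under 1 CPM in each, although these are abundant transcripts in heart. Ferritin and Gpx4 could therefore not be read from these counts.

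Hmox1 is also made by macrophages, and the summed level of their markers was likewise lowest in HFE. The summed level of 7 macrophage markers (Cd68, Csf1r, Adgre1, C1qa, C1qb, Cd163 and Mrc1) ranged from 73.4 to 103.2 CPM in HFE, 129.0 to 149.8 CPM in Sham, 105.6 to 196.0 CPM in HF and 120.3 to 260.7 CPM in BAIBA, so that HFE was below all other rats. No marker was at 0 in any rat. At an unadjusted p under 0.05, 6 of 7 were lower in HFE than in Sham (11.2% of all genes passed in either direction), 2 of 7 lower in HFE than in HF (7.62%) and 5 of 7 higher in BAIBA than in HFE (9.57%), and none was called. Cd163, a scavenger receptor for hemoglobin, was at 10.4 ± 2.88 CPM in HFE and 24.9 ± 2.01 CPM in BAIBA (SD, n = 3, adjusted p = 0.0986). Within groups the rats were partly in the same order: HF rat 1, at a sum of 105.6 CPM, and HFE rat 2, at 73.4 CPM, were the lowest of their groups in both the macrophage sum and Hmox1. BAIBA rat 1, at 260.7 CPM, and Sham rat 1, at 149.8 CPM, had the highest sum and the lowest Hmox1 of their groups. The part of macrophages in the Hmox1 difference was not tested, and in bulk tissue fewer cells of a type cannot be told apart from less RNA per cell.

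**Figure D4:**
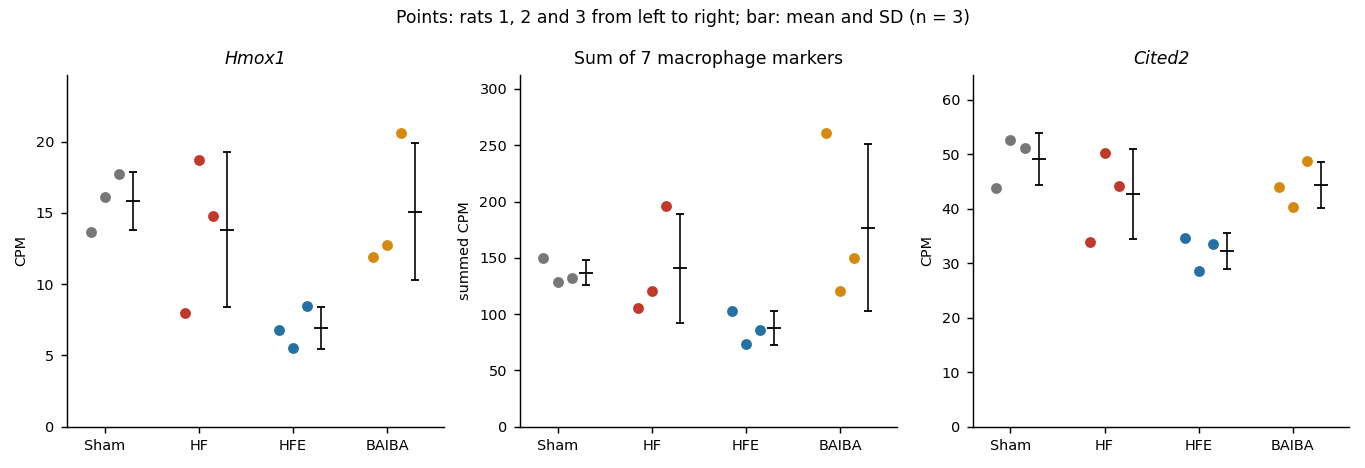
CPM of Hmox1 (left), summed CPM of 7 macrophage markers (middle) and CPM of Cited2 (right) in each rat, with rats 1, 2 and 3 from left to right within a group and the mean and SD beside them. The HFE rats are the lowest group in all 3 panels, and BAIBA rat 1, highest in the macrophage sum at 260.7 CPM, is not the highest in Hmox1.

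Other cell markers also differed between the groups. The cardiomyocyte sum was 27020 to 30410 CPM in HFE and 23380 to 25330 CPM in the other 9 rats, so the HFE rats with the highest Sod1 also had the highest cardiomyocyte sum. The single markers did not all follow the sum. Against Sham, 4 of 7 were higher in HFE, all 4 at an unadjusted p under 0.05, beside 11.2% of all genes. The other 3 were lower, among them Ryr2 at -0.45 ± 0.25 (log2, SE). In HFE against HF 6 of 7 were higher, 4 of them at that limit, beside 7.62%. In BAIBA against HFE 6 of 7 were lower, 2 of them at that limit, beside 9.57%. Of 4 endothelial markers, 3 passed the limit in HFE against Sham, 2 higher and 1 lower, beside 11.2%. The fibroblast markers were lower in HFE than in Sham for 7 of 7 genes, 4 of them at an unadjusted p under 0.05, beside 11.2% of all genes. In BAIBA against HFE 7 of 7 were higher, 3 of them at that limit, beside 9.57%. In HFE against HF 5 of 7 were lower, and 2 passed the limit in opposite directions, Col1a1 higher and Fn1 lower, beside 7.62%. Their sum ranged from 1068 to 1530 CPM in HFE, 1487 to 1613 CPM in Sham, 1123 to 1656 CPM in HF and 1443 to 2185 CPM in BAIBA. Of the 4 atrial markers, 3 were lower in BAIBA than in Sham at an unadjusted p under 0.05, beside 7.41% of all genes. The atrial sums overlapped, at 12.3 to 216.7 CPM in BAIBA and 30.7 to 438.4 CPM in Sham, with 28.5 to 195.4 CPM in HFE. None of these markers was called. The erythroid sum was 746.8 to 1004 CPM in BAIBA, 418.0 to 602.6 CPM in Sham, 394.3 to 959.4 CPM in HF and 595.0 to 664.6 CPM in HFE. All 4 erythroid markers were higher in BAIBA than in Sham, 3 of them at an unadjusted p under 0.05, beside 7.41% of all genes. All 4 were also higher than Sham in HF and in HFE, with 0 and 1 at that limit, beside 6% and 11.2%. HF rat 1 had the highest sum of adipocyte markers, at 23.3 CPM. BAIBA rat 3 came next at 16.55 CPM, followed by Sham rat 3 at 6.986 CPM. HF rat 1 stood apart in Slc7a11, the cystine importer and an Nrf2 target, with 35.7 CPM against at most 0.781 CPM in every other rat. It also stood apart in Rac2, with 37.6 CPM. Slc7a11 and Rac2 were singled out after their values were seen. BAIBA rat 1 stood apart in mesothelial markers, with a sum of 76.1 CPM. The part of these differences in the members' values was not tested. Without HF rat 1 no member was called in any comparison by edgeR.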

How the data were processed

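Raw counts per gene and FPKM values in the deposited tables were made by the authors, whose processing notes name HISAT2, StringTie, featureCounts from Subread and DESeq2 without versions. The notes name the mouse build mm9 although the gene identifiers are rat Ensembl identifiers (32623 of 34700 genes), so the build used is unclear and no gene coordinates were taken from the files. The library kit is not described as stranded in the labels.

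Counts were filtered with filterByExpr, normalized by TMM and tested with the quasi-likelihood F-test of edgeR 4.0.16 in R 4.3.3, with 1 fit per comparison of the rats concerned and 1 fit of all 12 rats for the infarcted groups together and for any difference. P-values were adjusted over all genes tested. A call needed an adjusted p below 0.05 together with a log2 fold change beyond 1 in either direction. CPM values are TMM-normalized. Alternatives were DESeq2 1.42.0, limma 3.58.1 on log2(FPKM + 1) and log2(FPKM + 0.1), other normalizations and filters, a replicate block and each rat left out. Single values were compared by exact permutation tests, two-sided. Correlations used log2(CPM + 0.1), for Nfe2l2 after subtraction of the group means.

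Totals of 14812541 to 19732588 counts per library set the precision, and each group of 3 rats limits it further. Replicates are separate rats by their labels. No label pairs the rats across groups, and the main fits treated same-numbered rats as different animals. Deviations from the group mean in same-numbered rats correlated weakly between BAIBA and HFE, at r of 0.118 to 0.222. In the other pairwise comparisons r lay between -0.079 and 0.121. No label gives a shared litter or day.

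The 10 members and the lists of other genes were chosen with earlier results of these data known. From each list, up to 3 genes per comparison with the lowest unadjusted p under 0.05 were eligible to be named. The scripts were tested on simulated counts with 200 genes changed by known folds, at an adjusted p under 0.05 without the fold limit. In BAIBA against HFE, 0% of genes changed 1.5-fold were recovered, 45% of those changed 2-fold and 84.5% of those changed 4-fold. In HFE against HF these shares were 0%, 47.5% and 86%. Small differences would therefore mostly go uncalled with 3 rats per group. Promoter sequences are from RefSeq (GRCr8). The genes Srxn1, Pgd, Gsta1 and Pecam1, which are in the lists, were not analysed here.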

Additional observations from a re-analysis of the deposited data

How the results depend on the processing

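The count of 0 members called was the same in 134 of 138 alternative fits. The exceptions were Hmox1 alone in each case: 1 member with DESeq2 in HFE against Sham, in BAIBA against HFE and in the test of any difference, and 1 with no filter beyond 1 count in HFE against Sham. Of 24 log2 fold changes larger than their standard error or belonging to Hmox1, none turned its direction under another normalization, filter, tool or unit. Values of the other members within their standard error of 0 were left out by this rule, so the counts do not cover their direction. Leaving out rats turned 6 of 162 values, all of Hmox1 in comparisons without HFE: it ranged from -0.48 to 0.08 in HF against Sham (0.076 without HF rat 1), from -0.16 to 0.40 in BAIBA against HF (-0.141 without HF rat 1 and -0.161 without BAIBA rat 3) and from -0.36 to 0.08 in BAIBA against Sham (0.03, 0.084 and 0.034 without Sham rat 3, BAIBA rat 1 and BAIBA rat 2). With the replicate number as a block, Hmox1 in BAIBA against HFE was 1.10 with an adjusted p of 0.0545, and the block changed no call of a member. The cause of the difference between tools was not tested. Over all alternatives the adjusted p of Hmox1 ran from 7.09e-05 to 0.429 in HFE against Sham, from 0.00896 to 0.566 in BAIBA against HFE and from 0.206 to 0.827 in HFE against HF.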
